A study of Mus musculus with 2 samples.

Results

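Expression of 10 transcription factors of naive pluripotency, Nanog, Klf2, Klf4, Klf5, Tbx3, Esrrb, Tfcp2l1, Prdm14, Nr0b1 and Nr5a2, was compared between E14 mouse embryonic stem cells (ESCs) and E14-Sox2 TA/WT cells. The factors were chosen by name as genes known to sustain the naive state, and all 10 were found among the 24532 genes of the RNA-seq table. Each genotype had 1 library of polyadenylated RNA. E14 is an established mouse ESC line, kept by the study in serum with leukemia inhibitory factor (LIF). E14-Sox2 TA/WT is an E14 clone made with CRISPR/Cas9 and a single-stranded donor, in which 1 Sox2 allele encodes the T258A change and the other is wild type. Threonine 258 of Sox2 is a site of O-GlcNAc, a sugar added to hydroxyl groups of proteins, which alanine lacks. The clone was isolated and routinely kept with 2i, the Mek inhibitor PD0325901 and the Gsk3 inhibitor CHIR99021, in addition to serum and LIF, and 2i was withdrawn some passages before use. The effects of the mutation, of the clone and of its culture history therefore cannot be told apart. Since each genotype was sequenced once, the RNA-seq differences carry no replicate check and no p-values. The paper names Tbx3 as a putative gene activated directly by Sox2 T258 O-GlcNAcylation. It also reports qPCR of some putative target genes in both cell types, and Tbx3 is among its qPCR primers. Those qPCR values are not part of the data used here. The table holds no base calls, so the Sox2 RNA level is no check of the T258A label.

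Mouse ESCs keep in culture the naive state of the preimplantation epiblast. LIF acts through Jak kinases and Stat3, and Wnt through β-catenin, to hold a network of transcription factors active, while Fgf and Erk signaling and the repressor Tcf7l1 act against it. Sox2 and Oct4 (encoded by Pou5f1) bind many enhancers of the network side by side, and the naive factors bind each other's genes, overlap in function, and are switched off when cells move on to the formative epiblast.

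Of the 10 factors, 5 had lower expression in E14-Sox2 TA/WT cells, namely Tbx3, Nanog, Klf2, Klf4 and Prdm14, and the other 5, Nr5a2, Klf5, Esrrb, Nr0b1 and Tfcp2l1, had nearly the same level in both libraries. Tbx3 was at 36.0% and Nanog at 47.7% of the E14 level, Klf2 at 60.1%, Klf4 at 65.8% and Prdm14 at 67.0%. The other 5 lay between 98.8% and 114% of it. Levels are given as TPM, in which reads are divided by transcript length and scaled to the library, so that genes can be compared within a library. With the study's filter, a TPM of 10 or more in E14, in E14-Sox2 TA/WT cells or in both, 9 factors were retained and Prdm14 fell short. A difference of more than 2-fold was seen for 2 of the 9, both downregulated, and for 0 in the other direction. Among all 9094 genes past the filter, 370 (4.07%) were lower and 379 (4.17%) were higher by more than 2-fold, 8.24% in either direction.

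The E14 library held 60263536 counted reads and the E14-Sox2 TA/WT library 44609228, of which the factors took 173520 and 90735. Each log2 TPM ratio of E14-Sox2 TA/WT over E14 is given with a 95% interval computed from its read counts by the exact Clopper-Pearson method. Counting error is all that these intervals cover, and variation between cultures is left out. PCR copies of a molecule are counted as separate reads, so the intervals can be too narrow even for counting error. Of 6 ESC markers, all past the filter, 0 differed more than 2-fold between the libraries, against 8.24% of all genes past the filter. A ratio between the libraries does not check the identity of either. Dppa5a was the lowest of these markers by ratio, with a TPM of 6877 in E14 cells and 4429 in E14-Sox2 TA/WT cells (log2 ratio -0.63), and Sall4 the highest at 0.61.

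**Figure D1:**
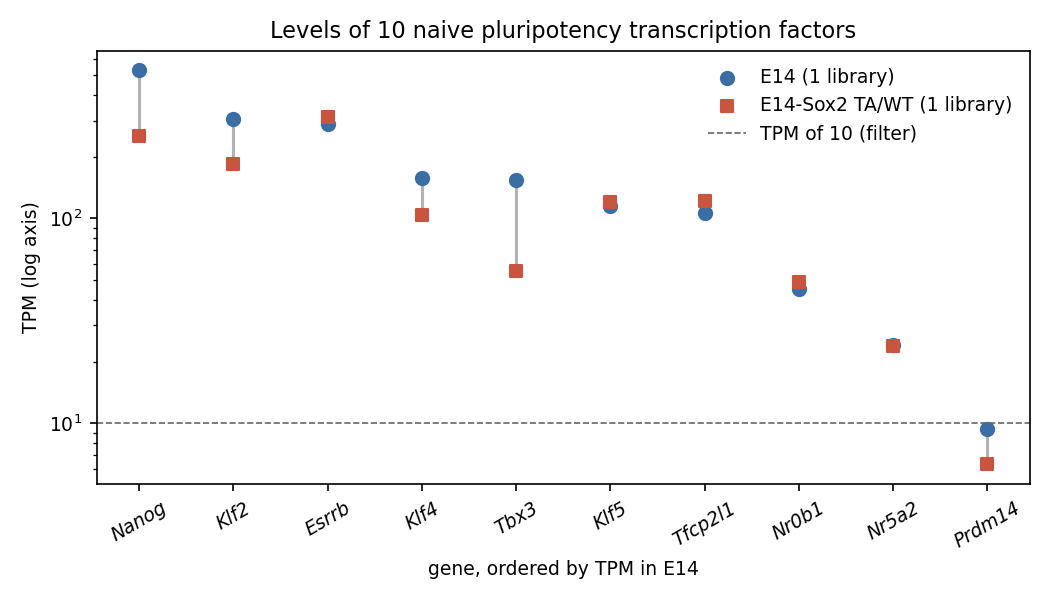
TPM on a log axis of each of the 10 factors in the E14 library (circles) and the E14-Sox2 TA/WT library (squares), ordered by the E14 level, with a dashed line at the filter of 10 TPM. Nanog, Klf2, Klf4, Tbx3 and Prdm14 have the square below the circle, and for the other 5 the symbols lie on or near each other.

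Nanog, a homeodomain protein that lets ESCs self-renew with little LIF when it is overexpressed, had the highest level of the 10 in E14. Its TPM was 526.9 in E14 against 251.3 in E14-Sox2 TA/WT cells, from 36683 and 11728 reads. The log2 ratio was -1.07 (-1.10 to -1.04), and Nanog went from rank 239 to rank 612 among all genes by TPM. By ratio it was the 330th lowest of the 9094 genes past the filter. The gene lies on chromosome 6 of GRCm38 at 122707489-122714633. Its promoter is shown because it holds an octamer letter string followed after 1 base by a Sox string, the arrangement that Oct4 and Sox2 bind together. The 250 bases before the RefSeq start site (GRCm38.p6, chr6:122707239-122707488, plus strand) are printed 5′ to 3′ with the octamer TTTGCAT and the Sox string ACAATG in capitals.
Nanog promoter: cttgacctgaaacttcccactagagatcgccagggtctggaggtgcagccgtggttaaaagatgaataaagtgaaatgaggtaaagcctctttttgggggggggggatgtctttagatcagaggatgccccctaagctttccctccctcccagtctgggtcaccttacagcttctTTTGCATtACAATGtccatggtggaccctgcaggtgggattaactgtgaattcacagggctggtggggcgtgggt
The strings span bases -75 to -62 from this start site, and -151 to -138 from another annotated start whose window overlaps this one. Both strands of 32851 RefSeq windows of this length were searched. The joint string, octamer, any base and ACAATG, overlaps matches of its 2 parts and was found in 2 windows (0.00609%), both of Nanog. With or without the other, the octamer was in 4.12% of windows and ACAATG in 10.7%. A match is a description of the letters and does not show binding.

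Tbx3, a T-box repressor that can sustain ESCs without LIF, had the lowest ratio of the 10. Its TPM was 153.9 in E14 cells and 55.3 in E14-Sox2 TA/WT cells, from 22609 and 5457 reads, a log2 ratio of -1.48 (-1.52 to -1.43). It was the 161st lowest ratio of the 9094 genes, and the rank of its level moved from 1035 to 3240. The gene is on chromosome 5 at 119670534-119684724. Tbx3os2, 0.364 kb away and antisense by its name, was also lower, with 216 reads in E14 against 30 in E14-Sox2 TA/WT cells (log2 TPM ratio -2.29, -2.90 to -1.74). The use of strand in counting is not given in the sources used here, and reads of Tbx3 and an overlapping antisense transcript could not then be told apart. Tbx3 shared 124 bases of its transcript with antisense Tbx3os1.

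Of the expressed genes next to Tbx3, the nearest on each side, Tbx3os2 and AW549542, were lower with it, and the next ones out were higher. No neighbor of Nanog was lower by more than 0.09 on the log2 scale. Beside Nanog, Slc2a3, the glucose transporter Glut3, was 13.2 kb away and had a TPM of 587.4 in E14 cells and 553.2 in E14-Sox2 TA/WT cells (log2 ratio -0.09). Dppa3, a maternal factor also used as a naive marker, was 77.2 kb away and had more reads in E14-Sox2 TA/WT cells, 211 against 159 (0.98, 0.68 to 1.29). Gdf3, a Nodal-related ligand 97.4 kb away, had a log2 ratio of 0.40, and Foxj2 0.35. The neighbors of Nanog were thus at or above the E14 level or within 0.09 of it on the log2 scale. Around Tbx3, AW549542 at 90.2 kb had 161 reads in E14 against 50 in E14-Sox2 TA/WT cells (-1.10, -1.59 to -0.64). Farther away, the Mediator kinase module subunit Med13l, at 905 kb, had a log2 ratio of 0.27. Rbm19, a ribosome biogenesis factor at 432 kb, had 0.83.

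Klf2 and Klf4 are zinc-finger factors of the Krüppel-like family that stand in for each other in ESCs. Klf4 is induced by Stat3, and Klf2 protein is destabilized by Erk signaling. The TPM of Klf2 was 306.2 in E14 cells and 184.1 in E14-Sox2 TA/WT cells, from 17515 and 7055 reads (log2 ratio -0.73, -0.77 to -0.69). For Klf4 the TPM was 158.1 and 104.1, from 15157 and 6686 reads (-0.60, -0.65 to -0.56). Both were lower by less than 2-fold, with 672nd and 899th place from the lowest ratio. A level lower by more than 1.5-fold was seen in 955 of the 9094 genes (10.5%), against 1291 (14.2%) that were higher by as much, and in 4 of the 9 factors past the filter, which were these and Tbx3 and Nanog. With the trend on GC and transcript length removed, Klf2 (-0.47) and Klf4 (-0.46) fell short of 1.5-fold and 2 factors remained. Klf5, the third Krüppel-like member, differed from them. Its TPM was 115.3 in E14 against 119.5 in E14-Sox2 TA/WT cells, from 6262 and 4352 reads, and its log2 ratio of 0.05 had an interval that included 0 (-0.0036 to 0.11). In E14 its level was below that of Klf4, and in E14-Sox2 TA/WT cells above it.

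The promoters of Klf2 and Klf4 are shown because they have the same letters before their start sites, the GC box GGGGCGGGG, in capitals. Klf2 is on chromosome 8 at 72319062-72321654 (window chr8:72318812-72319061, plus strand) and Klf4 on chromosome 4 at 55527137-55532475 (window chr4:55532476-55532725, minus strand, printed 5′ to 3′).
Klf2 promoter: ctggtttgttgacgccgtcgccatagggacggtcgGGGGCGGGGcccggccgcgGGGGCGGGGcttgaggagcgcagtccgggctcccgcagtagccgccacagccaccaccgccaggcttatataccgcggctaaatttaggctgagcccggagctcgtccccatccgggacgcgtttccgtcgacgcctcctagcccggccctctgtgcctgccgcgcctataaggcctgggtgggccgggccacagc
Klf4 promoter: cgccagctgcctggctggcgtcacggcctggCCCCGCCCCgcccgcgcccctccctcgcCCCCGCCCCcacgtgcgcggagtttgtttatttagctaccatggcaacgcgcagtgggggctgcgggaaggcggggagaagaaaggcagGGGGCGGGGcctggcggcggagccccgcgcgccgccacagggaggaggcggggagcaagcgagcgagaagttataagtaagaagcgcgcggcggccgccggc
Klf2 had 2 matches, at -215 to -207 and -196 to -188. Klf4 had 3, at -219 to -211, -191 to -183 and -102 to -94, the first 2 on the opposite strand (printed as CCCCGCCCC). The GC box was in 10.4% of all windows and in those of 0 other members. The Klf2 window was 71.2% GC and the Klf4 window 74.0%. A part of the GC box in the levels of the 2 genes was not tested. Neither window held the octamer or Sox letters.

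Windows were found for 7 of the 10 factors, all but Tbx3, Klf5 and Prdm14. The Sox variant ACAAAG, present in 16.5% of all windows, was matched in a window of Nr5a2 and in that of Nr0b1, which is shown for comparison as a gene whose level hardly differed (chrX:86191525-86191774, plus strand, with the variant in capitals at -101 to -96).
Nr0b1 promoter: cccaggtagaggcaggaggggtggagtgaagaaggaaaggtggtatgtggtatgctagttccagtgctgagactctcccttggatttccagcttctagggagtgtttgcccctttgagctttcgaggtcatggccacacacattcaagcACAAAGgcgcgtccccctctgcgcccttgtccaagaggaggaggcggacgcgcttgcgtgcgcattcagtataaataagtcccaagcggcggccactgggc
The nuclear receptor string AAGGTCA, the Klf string CCACACCC, the T-box string AGGTGTG, the Stat string TTCCNGGAA, the Tcf string ATCAAAG and the Prdm14 string GGTCTCTAA were in the windows of 0 members, against 4.08%, 3.20%, 5.10%, 0.913%, 3.21% and 0.240% of all windows. No match says only that these letters are not in these windows.

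Prdm14, a PR-domain repressor that acts with Cbfa2t2 and limits Fgf receptor signaling and DNA methyltransferases, was the lowest of the 10 in both libraries. Its TPM was 9.40 in E14 cells and 6.30 in E14-Sox2 TA/WT cells, from 768 and 345 reads. The log2 ratio was -0.58, with the widest interval of the 10 (-0.76 to -0.39). Its interval overlapped the ratios of Klf2 and Klf4. The gene lies on chromosome 1 at 13113428-13127163.

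Esrrb, an orphan nuclear receptor and a main target of Gsk3 inhibition through Tcf7l1, had nearly the same level in both libraries and was the highest of the 10 in E14-Sox2 TA/WT cells. Its TPM was 289.6 in E14 against 310.6 in E14-Sox2 TA/WT cells, from 38305 and 27789 reads (log2 ratio 0.10, 0.08 to 0.12). Its rank among all genes was 494 and 484. Tfcp2l1, a CP2-family factor downstream of Stat3 and β-catenin, had a TPM of 105.9 and 120.9, from 30910 and 23651 reads (0.19, 0.17 to 0.22). It had the highest ratio of the 10. Esrrb lies on chromosome 12 at 86361117-86521628 and Tfcp2l1 on chromosome 1 at 118627923-118685168.

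The remaining nuclear receptors also differed little. Nr0b1 (Dax1), which lacks the usual DNA-binding domain and binds Oct4, had a TPM of 45.1 in E14 cells and 48.7 in E14-Sox2 TA/WT cells, from 2554 and 1847 reads (log2 ratio 0.11, 0.02 to 0.20). Nr5a2 (Lrh-1), an activator of Pou5f1, had a TPM of 24.1 and 23.8, from 2757 and 1825 reads (-0.02, -0.10 to 0.07). Its interval included 0. Nr0b1 is on chromosome X at 86191775-86195947, Nr5a2 on chromosome 1 at 136842562-136960448 and Klf5 on chromosome 14 at 99298691-99313412. Over all genes past the filter, the median log2 ratio of the chromosomes that carry the 10 factors lay between 0.03 for chromosome 6, that of Nanog, and 0.28 for chromosome 8, that of Klf2.

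**Figure D2:**
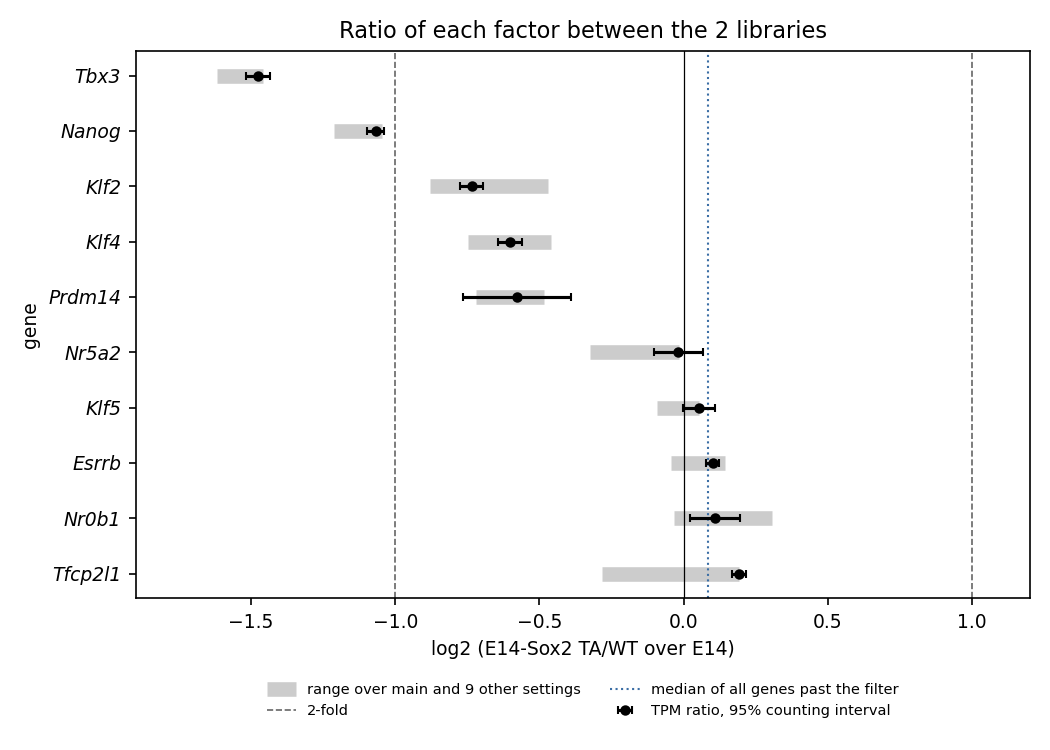
Log2 ratio of E14-Sox2 TA/WT over E14 for each factor, with the TPM ratio and its 95% counting interval in black, the range over the TPM ratio and 9 other ways of scaling in gray, the 2-fold limits dashed and the median of all genes past the filter (0.08) dotted. Tbx3 and Nanog lie past the limit over their whole gray ranges, Klf2, Klf4 and Prdm14 lie between it and 0, and the gray ranges of Klf5, Esrrb, Nr0b1 and Tfcp2l1 cross 0.

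By TPM, the ratios of the 10 lay on either side of a gap. The gap, 0.56 on the log2 scale, lay between Prdm14 at -0.58 and Nr5a2 at -0.02, and was the widest among the ordered ratios. Of the 45 pairs of factors, 25 took a member from each side, with differences in log2 TPM ratio from 0.56 to 1.67. The counting interval of a pair was taken from read counts without the TPM scaling, and in 0 of the 25 did it include 0. Over all 45 pairs it included 0 in 6, which were Klf2 with Prdm14, Klf4 with Prdm14, Nr5a2 with Klf5, Klf5 with Nr0b1, Esrrb with Nr0b1, and Nr0b1 with Tfcp2l1. For Klf5 with Esrrb it ran from 0.0016 to 0.12, beside a difference in log2 TPM ratio of 0.049. Pair intervals on the TPM scale were not computed. The gap was chosen from these same ratios, so the pairs across it are a description. It was 0.49 with a pseudocount of 1. After removal of the trend with GC content and length of the transcript this division was no longer the widest. It shrank to 0.14, with Prdm14 at -0.48, Klf4 at -0.46, Nr5a2 at -0.32 and Tfcp2l1 at -0.28, and the widest gap, 0.56, then set Tbx3 and Nanog apart from the other 8. Tfcp2l1 has a long transcript, with 2.28% of the genes past the filter longer, and Klf2, a GC-rich one (61.6% GC, with 2.21% of genes higher).

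The 5 lower factors and Nr5a2 stayed below 0 under all 9 alternatives. The other 4 lay near the median of all genes. Scalings that shift all genes alike turned the sign of Klf5, Esrrb and Nr0b1. The sign of Tfcp2l1 turned only when the GC and length trend was removed. The median log2 ratio over all genes past the filter was 0.08 with TPM and -0.06 with FPKM (fragments scaled to length and depth) or with counts scaled to the library total. Relative to the median of all genes with TPM, the log2 difference was -1.56 for Tbx3, -1.15 for Nanog, -0.82 for Klf2, -0.69 for Klf4 and -0.66 for Prdm14. The others were at -0.10 for Nr5a2, -0.03 for Klf5, 0.02 for Esrrb, 0.02 for Nr0b1 and 0.11 for Tfcp2l1. Measured this way, Tfcp2l1 alone changed side under an alternative, to -0.37 after the GC and length trend was taken out. The median of the 10 ratios was -0.30, against 0.08 for all genes past the filter, of which 42.7% had a lower TPM in E14-Sox2 TA/WT cells. Over the 9 past the filter it was -0.02. By direction alone, 6 of the 10 had a lower and 4 a higher TPM.

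**Figure D3:**
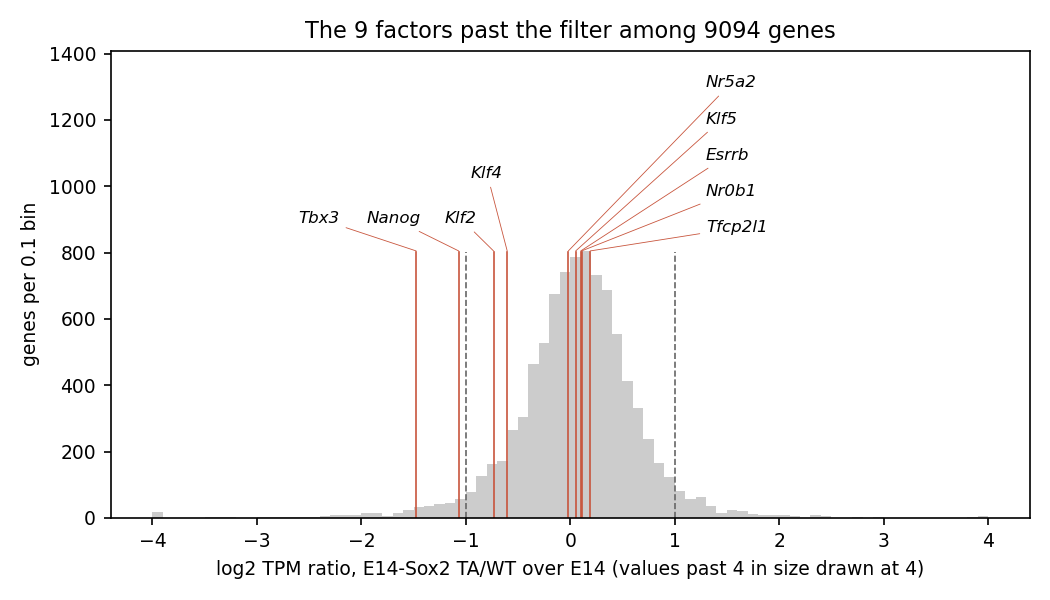
Histogram of the log2 TPM ratio of the 9094 genes past the filter in bins of 0.1, with the 9 factors past the filter as red lines and the 2-fold limits dashed. Tbx3, Nanog, Klf2 and Klf4 stand in the left tail, at the 161st to 899th lowest ratio, and the other 5 stand near the center.

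The order of the levels differed between the libraries. In E14 it was Nanog, Klf2, Esrrb, Klf4, Tbx3, Klf5, Tfcp2l1, Nr0b1, Nr5a2 and Prdm14, and in E14-Sox2 TA/WT cells Esrrb, Nanog, Klf2, Tfcp2l1, Klf5, Klf4, Tbx3, Nr0b1, Nr5a2 and Prdm14. All neighbors in these orders differed beyond counting error except Tfcp2l1 and Klf5 in E14-Sox2 TA/WT cells (log2 TPM difference 0.02, -0.03 to 0.06). Klf4 and Tbx3 were close in E14, 0.04 apart on the log2 scale (0.01 to 0.07), and 0.91 apart in E14-Sox2 TA/WT cells. The highest factor was 56.1-fold above the lowest in E14 against 49.3-fold in E14-Sox2 TA/WT cells. The sum of the 10 TPM values was 1734 in E14 cells and 1225 in E14-Sox2 TA/WT cells, a change of -29.4%, or -19.4% without Nanog. Of this sum, Nanog made up 30.4% in E14 against 20.5% in E14-Sox2 TA/WT cells, whereas Esrrb made up 16.7% against 25.4%. The 5 lower factors summed to 1155 and 601.1 TPM and the other 5 to 580.0 and 623.6 TPM.

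Reads of other loci can enter a gene's count where sequences are shared. At 95% identity over at least 100 bases, 7 of the 10 had no match in another gene's transcripts. Nanog shared 451 of its 2211 transcript bases with transcripts of 61 other genes, the longest match, 245 bases, being to the pseudogene Nanog-ps1. Tfcp2l1 shared 130 of its 9269 bases with Gm23497. The treatment of reads with several matches is not given in the sources used here, and the Nanog count is uncertain to that extent.

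The partners and other genes of the naive network were mixed. Pou5f1 had a TPM of 1725 in E14 against 1759 in E14-Sox2 TA/WT cells (log2 ratio 0.03), and Sox2 372.5 and 274.2 (-0.44, -0.47 to -0.41), neither past 2-fold. With Sall4, 0 of the 3 core partners passed 2-fold. Among all genes past the filter, 4.07% were lower and 4.17% higher past 2-fold. Of 12 other naive-state genes, 11 passed the filter, and their median was 0.07, close to that of all genes. Downregulated past 2-fold were 2 of the 11, Sox15, a Sox2 relative, from a TPM of 46.1 to 7.79 (-2.56), and the adhesion molecule Pecam1, from 102.7 to 44.1 (-1.22). Upregulated past 2-fold were 2, Gbx2, a homeobox target of Stat3, from 12.4 to 64.2 (2.37), and Tdh, threonine dehydrogenase, from 350.3 to 731.5 (1.06). Tdh fell short of 2-fold with library totals, centering or FPKM (0.92 to 0.98), and Dppa3 passed it without the GC and length trend (1.07).

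Relatives of the factors by family were mostly within 2-fold of E14, as were most genes. Among all genes past the filter, 8.24% differed by more than 2-fold in either direction. Of the 14 other Krüppel-like genes, 8 passed the filter, 1 was higher past 2-fold and 0 lower, with a median of -0.01. The higher one was Klf6, from a TPM of 25.9 to 60.7 (log2 ratio 1.23), and the lowest was Klf3, 120.2 to 71.4 (-0.75). In the T-box family 2 of 16 genes passed the filter, the mesoderm factor T, from 62 to 606 reads (3.88), and Mga (0.78). T passed it only through the library where it was higher. Of the Grainyhead and CP2 genes, 3 of 5 passed the filter with a median of 0.25, Tfcp2 being lowest (-0.97) and Grhl3 highest (0.27). By TPM 0 of the 3 passed 2-fold, and under 5 of the 9 other scalings Tfcp2 did (-1.11 to -1.01). Orphan nuclear receptors ranged from -0.39 for Esrra to 0.55 for Nr2c2, with 3 of 9 past the filter, 0 past 2-fold and a median of 0.19. In the Prdm list, which includes Cbfa2t2, 5 of 14 genes passed the filter, with 0 past 2-fold and a median of 0.23, and Cbfa2t2 was highest (0.42).

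Genes of the signaling pathways that act on the network, feedback inhibitors among them, were mostly above the E14 level. Of 11 genes of LIF, Wnt and Fgf signaling, all past the filter, 10 had a higher TPM and 3 were higher past 2-fold. Their median log2 ratio was 0.49. Among all genes past the filter, 42.7% had a lower TPM and 4.17% were higher past 2-fold. Under the other scalings 10 of the 11 were above 0, 2 or 3 were past 2-fold and the median was 0.35 to 0.50. The 3 were the Fgf and Erk feedback inhibitors Spry4, from a TPM of 51.4 to 134.6 (1.39), and Dusp6, from 53.8 to 134.2 (1.32), and the LIF co-receptor Il6st, from 18.9 to 43.1 (1.19, but 0.71 without the GC and length trend). The lowest was Socs3, the feedback inhibitor of LIF signaling, with 159.2 and 110.9 (-0.52). Of 8 genes linked to exit from the naive state, not all of them required for it, 1 was higher past 2-fold, Tcf7l1, from 7.12 to 25.0 (1.81). The lowest was Flcn (-0.10), and the median of the 8 was 0.36 (0.21 to 0.36 over the scalings). Of 6 formative epiblast genes, 4 passed the filter and 3 of them were higher past 2-fold. These were Pou3f1, from 4.34 to 24.4 (2.49), Otx2, from 6.66 to 33.5 (2.33), and the DNA methyltransferase Dnmt3b, from 67.5 to 150.4 (1.16), while Zic2 had a log2 ratio of 0.76 and the median of the 4 was 1.74. Genes past the filter only through the library where they are high had to differ, so these counts and medians, and those of the other lists, are descriptions.

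**Figure D4:**
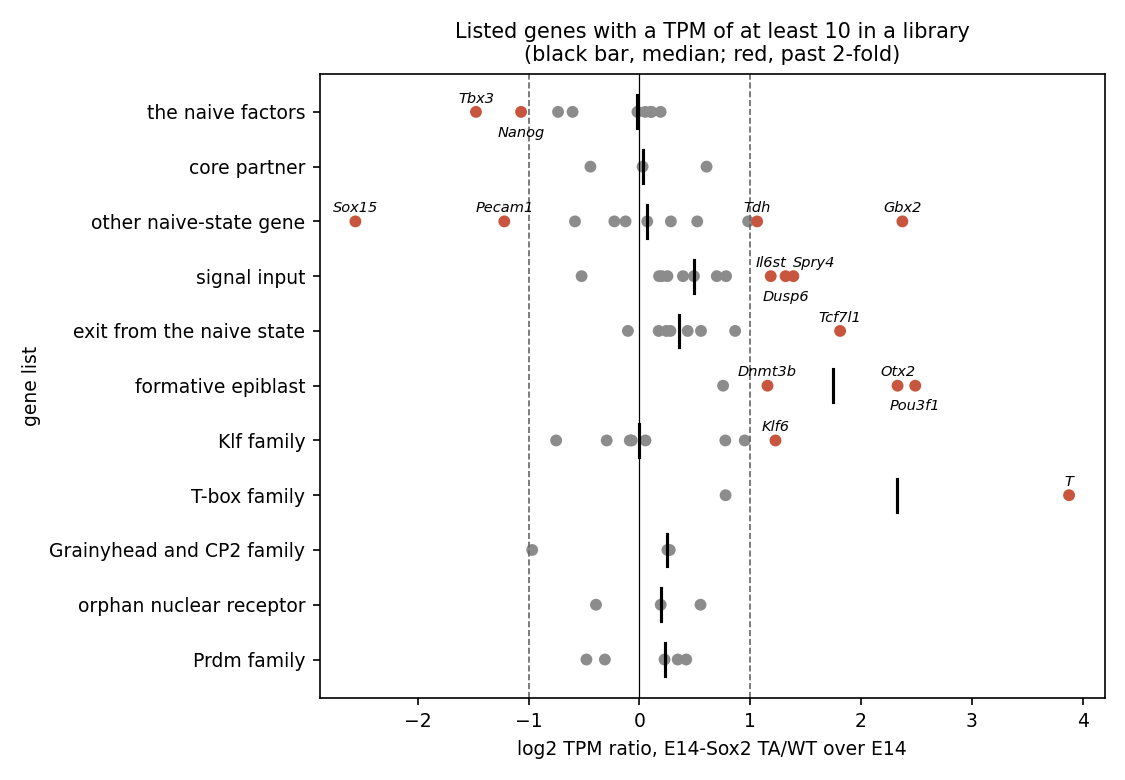
Log2 TPM ratio of each listed gene past the filter, 1 row per list, with the median as a black bar, the 2-fold limits dashed and genes past them in red and named. The row of naive factors has 2 red points on the left, Tbx3 and Nanog, and 0 on the right. The signal input, exit, formative, Klf family and T-box family rows have red points on the right only.

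Markers of other cell types differed between the libraries as well. In bulk RNA, fewer cells of a type and less RNA per cell cannot be told apart. Of 8 primitive endoderm markers, a lineage that arises beside the naive epiblast, 1 passed the filter, Gata4, from a TPM of 15.0 in E14 to 3.80 in E14-Sox2 TA/WT cells (log2 ratio -1.98). The summed TPM of the 8 was 50.3 and 21.3, and 7 of the 8 had a lower level, with Gata6 at -1.88, Sox17 at -2.09, Sox7 at -1.68, Pdgfra at -2.04, Foxa2 at -0.87 and Dab2 at -0.27. Cubn was at 0.17. The other 7 were lower in the same library as Tbx3 and Nanog, as were some markers of the other cell types below. Fibroblast markers summed to 49.8 and 19.5 TPM, of which Thy1, from 40.1 to 11.4 (-1.81), was the most abundant and the only 1 of 8 past the filter. Pdgfrb was also lower (-1.24), whereas the collagens had a higher TPM, Col3a1 with 15 and 151 reads (TPM 0.0799 and 1.28), Col1a2 with 43 and 109 reads (1.93) and Col1a1 with 497 and 370 (0.15, with an interval that included 0). Dcn, Lum and Postn had 0 reads in both. Trophoblast markers summed to 110.8 and 195.3 TPM. Of these, 3 of 7 passed the filter and differed past 2-fold, Cdx2 (from 0.474 to 12.2) and Krt8 (1.53) being higher and Tfap2c, which ESCs also express, lower (-1.67). Cdx2, like Gata4, passed the filter only through the library where it was higher, so these marker counts are descriptions. Under the filter, Eomes (300 and 575 reads, 1.51), Gata3 (33 and 50 reads, 1.19) and Hand1 (0.16) had a higher TPM, and Elf5 had 0 reads in both. Markers of 2-cell-like cells summed to 85.6 and 117.5 TPM, with 0 past 2-fold among the 3 of 6 past the filter, from 0.39 for Zscan4c to 0.91 for Zscan4d. The part of these cell types in the lower Nanog and Tbx3 levels was not tested.

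**Figure D5:**
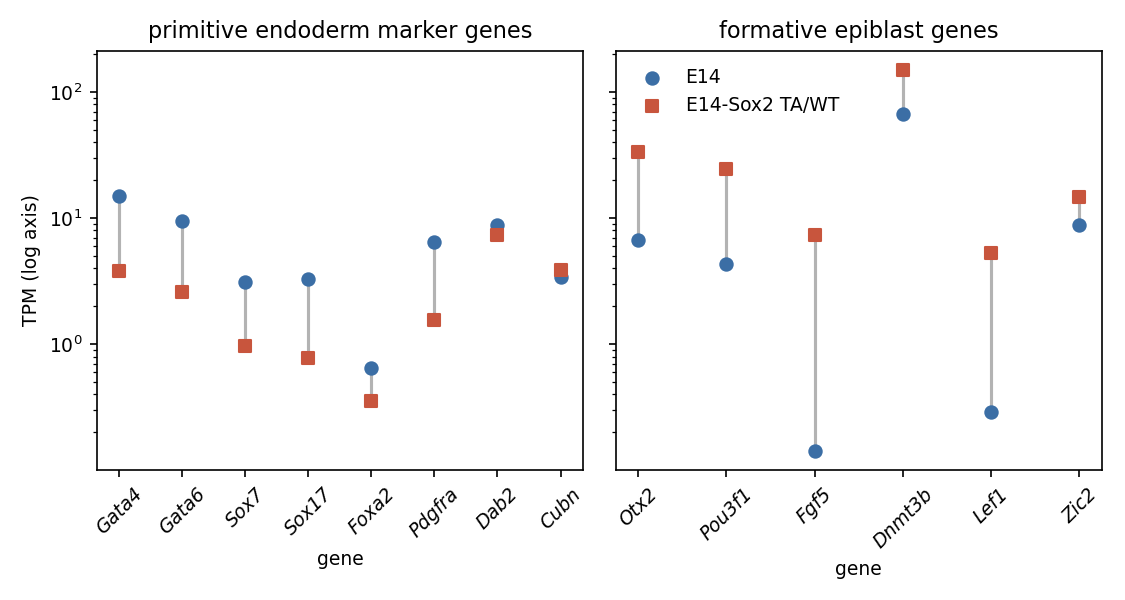
TPM on a log axis of 8 primitive endoderm markers (left) and 6 formative epiblast genes (right) in the E14 library (circles) and the E14-Sox2 TA/WT library (squares). All endoderm markers but Cubn have the square below the circle, and all 6 formative genes have it above.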

How the data were processed

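Polyadenylated RNA was sequenced from 1 E14 and 1 E14-Sox2 TA/WT library. Per the submitters' processing notes, bcl2fastq 2.20.0, Trimmomatic, HISAT2 2.1.0 and StringTie 2.1.3b were used, and the table is for mm10 (GRCm38). The authors deposited whole-number read counts without normalization, FPKM scaled per kilobase and to fragments, and TPM scaled to the library. All value columns were used. The depth was 60263536 and 44609228 reads, and a floor of 3 reads corresponded to 0.0498 and 0.0673 CPM (counts scaled to the library total).

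Ratios of TPM, with no pseudocount, were used where either library reached a TPM of 10, and differences of more than 2-fold were counted, as in the study's methods. No test was run, since each genotype had 1 library. Counting intervals (95%) were computed in Python 3.11.15 with scipy 1.17.1. The computation was checked on simulated independent counts, before the shift to the TPM scale. The simulation held no PCR copies and no variation between cultures, so it says nothing on these. TMM (edgeR 4.0.16) and median-of-ratios (DESeq2 1.42.0) served for scaling factors only. Other alternatives were pseudocounts, library-total scaling, FPKM, centering, removal of a GC and length trend, rescaling after leaving out the 10 highest genes, and other filters and thresholds. Transcript matches were searched with blastn 2.17.0 in GENCODE transcripts of GRCm38, which covered 9033 of the 9094 genes past the filter. Positions and promoters came from RefSeq tables of GRCm38.p6.

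Named genes were the 10 factors, Sox2, Pou5f1, listed genes past 2-fold, the highest and lowest of each list, and the 2 expressed neighbors on each side of a factor past 2-fold (mean TPM of at least 1). The value of 1 listed gene is not reported here. Markers were also given where they moved with a result. The factors and lists were chosen with earlier results of these data known.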

Additional observations from a re-analysis of the deposited data

How the results depend on the processing

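Tbx3 and Nanog stayed the 2 factors lower past 2-fold, with 0 higher, under every scaling, pseudocount and filter tried. Their log2 ratios ranged from -1.62 to -1.46 and from -1.21 to -1.05. At 1.5-fold 4 factors were lower (2 without the GC and length trend), and at 3-fold 0. The median of the 10 was -0.44 with counts scaled to the library total and -0.44 with FPKM. Sign changes were seen for 4 factors with ratios near 0, most under scalings that shift all genes alike. Klf5 came to -0.091 with library totals, -0.091 with FPKM, -0.032 with centering and -0.00087 without the GC and length trend. Esrrb came to -0.029 and -0.042, and Nr0b1 to -0.034 and -0.034, with library totals and FPKM. Relative to the median of all genes, these 3 kept their side. Tfcp2l1 came to -0.28 without the GC and length trend and changed side relative to that median too. Of all genes, 496 were lower and 278 higher past 2-fold with FPKM, 496 and 280 with library totals, and 436 and 307 with centering. Without a filter the counts were 2019 and 1342 of 16269 genes with reads in both libraries, and with a TPM of at least 1 they were 1366 and 886. At 1.5-fold they were 955 and 1291, and at 3-fold 136 and 104. No paired analysis was possible because each genotype had 1 library, and for the same reason no library could be left out. Depth limits Prdm14 most, at 345 reads in E14-Sox2 TA/WT cells.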
